A study of Mus musculus with 12 samples.

Results

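ATF6a knockout and wild type mouse embryonic fibroblasts were compared after 24 h of tunicamycin, on 4 of the 12 miRNA arrays of the study. The 2 knockout and 2 wild type arrays of that time point were chosen by their labels, and all mouse miRNAs on them were read. Both groups were C57BL/6 embryonic fibroblasts kept in medium with 2 ug/mL tunicamycin for 24 h, and they differed in genotype, labelled ATF6aKO and ATF6aWT. The other 8 arrays held both genotypes untreated or after 12 h of the same dose, again with 2 arrays a group. Each pair of arrays came from 2 experiments described as independent. How the knockout was made, and from how many embryos the cells came, is not given in the sources used here. The array has no probe for the Atf6 transcript, so genotype was taken from the labels alone. Wild type arrays always lay in row 1 of a slide and knockout arrays in row 2, so genotype and slide position cannot be told apart.

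ATF6a is a membrane protein of the endoplasmic reticulum. When unfolded proteins accumulate there it moves to the Golgi, is cut by proteases, and its freed cytosolic part enters the nucleus to raise the transcription of chaperone genes. Tunicamycin blocks N-linked glycosylation and thereby causes such accumulation. A miRNA is a short RNA that guides a silencing complex to messenger RNAs, mainly through its seed, bases 2 to 8 from the 5′ end. miRNAs with the same seed can share targets even when they are transcribed from different places, and miRNAs encoded side by side are often cut from one transcript.

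The sequences of the miRNAs that carry the comparison are given first, because several differ from a close relative by a single base and the array has to tell these apart. They are RefSeq's mature sequences (GRCm38.p6), in which 30 of the 174 tested mouse miRNAs were found under the array's own name, 113 through the current name of the same arm, and 31 not. Capitals mark the seed. The first 4 are encoded within Hox gene clusters and form pairs with one seed each.
miR-10a: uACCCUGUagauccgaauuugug
miR-10b: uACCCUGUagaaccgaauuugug
miR-196a: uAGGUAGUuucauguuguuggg
miR-196b: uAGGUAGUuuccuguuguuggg
With positions counted from 1 at the 5′ end of the first of each pair, miR-10a and miR-10b differed by U12A alone, and miR-196a and miR-196b by A12C alone. The next sequences belong to neighbours of one transcript, miR-96 and miR-183, whose seeds differ.
miR-96: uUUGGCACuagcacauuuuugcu
miR-183: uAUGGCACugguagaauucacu
The remaining ones are miR-27b with its paralogue miR-27a, which differ by U19C alone, miR-20b with its paralogue miR-20a, which differ by C1U and C10U, and miR-322 with miR-15b, which share a seed. They are shown because the first of each pair differed between genotypes and the second did not pass the test. miR-1224 and the star form miR-135a* had no tested relative with the same seed.
miR-27b: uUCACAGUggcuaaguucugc
miR-27a: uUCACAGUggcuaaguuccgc
miR-20b: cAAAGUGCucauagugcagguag
miR-20a: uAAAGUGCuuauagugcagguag
miR-322: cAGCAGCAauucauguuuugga
miR-15b: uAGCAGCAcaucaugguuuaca
miR-1224: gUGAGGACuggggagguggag
miR-135a*: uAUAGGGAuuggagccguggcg

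Levels are log2 of the spot signal divided by each array's 75th percentile over 87 reference probes, so a level of 0 equals that percentile. Differences are knockout minus wild type on the same log2 scale, ± SE with n = 2 arrays a group, tested with limma and adjusted over 175 miRNAs at a threshold of 0.05. The SE pools the spread of all 12 arrays, so it is not that of the 24 h replicates alone. Differences between replicates had an SD of 0.72 (wild type) and 0.80 (knockout) at 24 h. In untreated cells the SD was 0.16 and 0.19, so the groups pooled were unequal in spread. Levels of different miRNAs cannot be set against each other, since probes differ in brightness. Of 611 mouse miRNAs on the array, 174 had a probe above background on both arrays of some group and were tested, and 437 were not tested. A floor of -5.02, the same for all arrays, replaces weaker signals. A miRNA is called measured on an array where it was above background with no probe at the floor, and 62 mouse miRNAs were measured on all 4 arrays. The replicate 2 arrays, scanned in another run than replicate 1, were dimmer. Their lowest probe signal above background was -2.87 in wild type and -3.10 in knockout cells. Weaker probe signals there, down to the floor, enter the levels and differences although they were not above background. On them 81 (wild type) and 82 (knockout) mouse miRNAs were above background, against 141 in wild type and more in knockout cells on the replicate 1 arrays. Of 7 markers of fibroblasts and mesenchymal cells, 5 to 6 were above background on each of the 4 arrays. None of the epithelial, blood, endothelial, neural, liver or embryonic stem cell markers was, and of 4 muscle markers miR-206 was, on knockout replicate 1 only.

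After 24 h of tunicamycin, 17 miRNAs differed between the genotypes (limma, adjusted p below the threshold), which is 9.71% of those tested. In knockout cells 8 were higher (4.57%) and 9 lower (5.14%). The higher ones were miR-135a*, miR-23b, miR-1224, miR-10b, miR-27b, miR-378, miR-689 and miR-99a, and the lower ones miR-10a, miR-196a, miR-196b, miR-129-3p, miR-96, miR-183, miR-322, miR-20b and miR-129-5p. Both knockout arrays lay beyond both wild type arrays for each of the 17, as they did for 44.6% of all tested miRNAs. Sizes ran from 0.58 to 2.19 log2 units. Only 6 of the 17, namely miR-96, miR-23b, miR-1224, miR-20b, miR-322 and miR-689, were measured on all 4 arrays. Of the 17, 10 had a probe at the floor on at least 1 array, which bounds the size of their difference. Arrays at the floor also show no spread, so SE and p are too small where a whole group, of any condition, lies there. In limma 0 miRNAs passed after quantile normalization, where 8 had an unadjusted p under 0.05, and 0 when all probes set the scale, where 2 did. The count was 9 without wild type replicate 2, 10 without knockout replicate 2, and 29 without either 12 h knockout array, which enter through the shared estimate of spread.

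**Figure D1:**
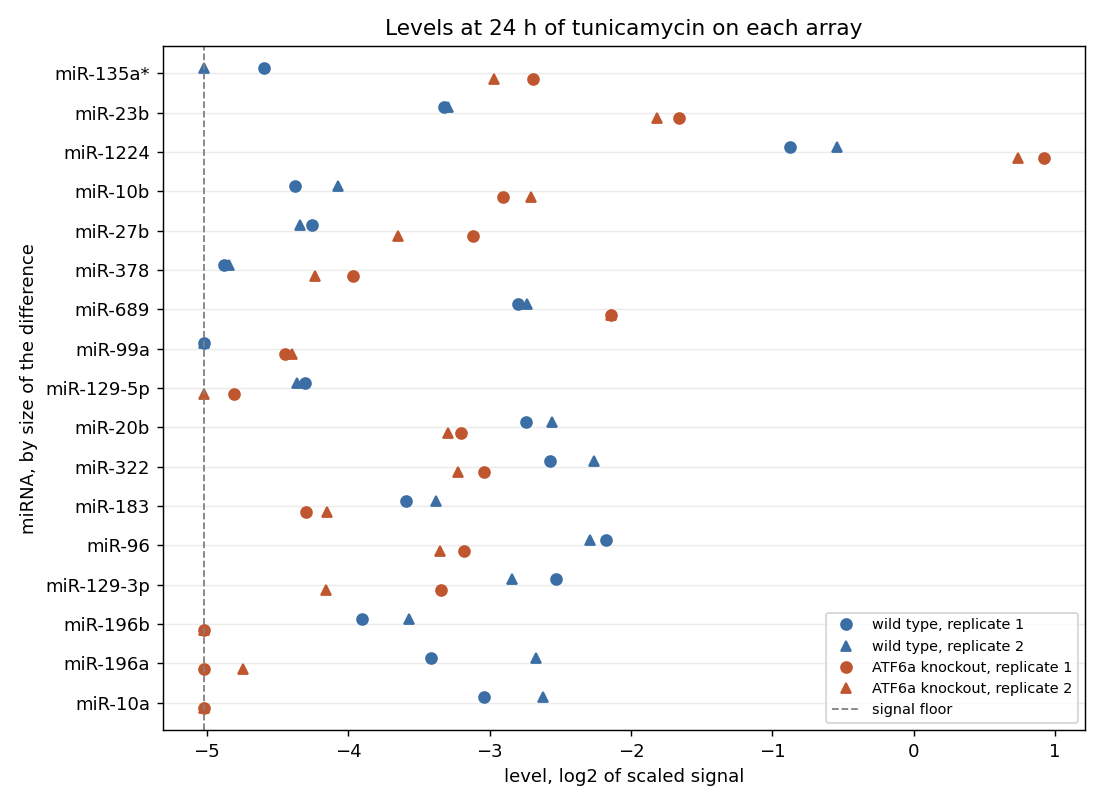
Level of each of the 17 miRNAs that passed the test on the 4 arrays of the 24 h groups, as log2 of scaled signal, with wild type in blue, knockout in orange, circles for replicate 1 and triangles for replicate 2. The groups do not overlap in any row, and both knockout arrays of miR-10a and miR-196b and both wild type arrays of miR-99a sit on the dashed floor at -5.02.

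The miRNAs of the Hox gene clusters, which are transcribed along with the genes that set position along the body axis, showed both the lowest and some of the highest differences. All 4 tested members passed, 3 lower and 1 higher in the knockout, against 9.71% of all tested miRNAs. miR-10a and miR-196b were at the floor on every knockout array of the study, so only wild type arrays, where they are high, measured them. The 4 calls are therefore too few to read against that share. The array holds 9 members of the list, and none of the 4 tested was measured on all 4 arrays. Their median was -1.56 against -0.0166 over all tested mouse miRNAs. miR-10a lies at chr11:96317186-96317208, within the span of Hoxb3 and next to Hoxb4. Its level was -3.04 and -2.62 on the wild type arrays and at the floor on both knockout arrays, though the scanner software held 1 of these above background. The difference was -2.19 ± 0.14 (limma, adjusted p = 0.000116), a size set by the floor on the knockout side. The floor also removes the spread there, and with each array's own floor the adjusted p of miR-10a was 0.992 (limma). Its brighter probe read 74.8 and 39.9 scanner units in wild type cells and 14.4 and 6.70 in knockout cells.

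miR-10b, which carries the same seed and lies at chr2:74726074-74726096 within the spans of Hoxd3 and Hoxd4, went the other way. It stood at -4.38 and -4.07 in wild type and at -2.91 and -2.70 in knockout cells. The difference was 1.42 ± 0.17 (limma, adjusted p = 0.00297), and it was above background on 1 of 2 wild type arrays. Over the pair that differs by one base, the knockout arrays were therefore at the floor for one member and higher for the other.

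miR-196a is encoded at 2 places, beside Hoxb9 and between Hoxc10 and Hoxc9, and the array cannot tell the copies apart. Its levels were -3.41 and -2.67 in wild type cells, and -5.02 and -4.74 in knockout cells. That is a difference of -1.84 ± 0.24 (limma, adjusted p = 0.00309), with its 4 probes at -0.85 to -2.51. The probe at -0.85 was above background on none of the 4 arrays, and all 4 probes were at the floor on knockout replicate 1. miR-196b, between Hoxa9 and Hoxa10 at chr6:52230129-52230150, read -3.90 and -3.57 against the floor on both knockout arrays. It was not above background in knockout cells and was at least 1.25-fold lower there (limma, adjusted p = 0.000456). It was above background on 1 of the 2 wild type arrays, so the mean behind that bound includes an array where it was not. The bound also rests on replicate 1, since on knockout replicate 2 the lowest signal above background, -3.10, exceeded the wild type levels. In the series table deposited by the authors, which leaves arrays out where a miRNA was not detected, miR-10a turned to 0.93 and miR-196a to 0.36. The list's median there was 0.93, while it was -1.66 if all probes set the scale and -1.33 after quantile normalization.

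miR-96 and miR-183, which with miR-182 form a cluster best known from sensory cells, were lower in the knockout. They lie 205 bases apart on the minus strand of chromosome 6, within the long noncoding RNA Mirc35hg. miR-96 stood at -2.18 and -2.29 in wild type and at -3.18 and -3.35 in knockout cells. It was 2.05-fold lower, a difference of -1.03 ± 0.10 (limma, adjusted p = 0.000608), with -1.01 within replicate 1 and -1.06 within replicate 2. miR-183 read -3.59 and -3.38 against -4.30 and -4.15, a difference of -0.74 ± 0.14 (limma, adjusted p = 0.0151) with 2 of 4 arrays measured. miR-182, 3544 bases from miR-96, was measured on 1 array only, at -4.65 on wild type replicate 1. Its difference of -0.18 ± 0.12 did not pass. The median of the cluster, -0.74, was also below 0 under quantile normalization, normexp, scaling on all probes and the scanner's summed signal. It was 0.0102 in the deposited table, where miR-183 had that same value and the median of all miRNAs was 0.38.

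miR-23b and miR-27b were higher in the knockout. They belong to the cluster on chromosome 13, within the span of Aopep, one of a pair of loci that each encode a miR-23, a miR-27 and a miR-24. miR-23b stood at -3.33 and -3.30 in wild type and at -1.66 and -1.81 in knockout cells, measured on all 4 arrays. It was 2.97-fold higher, at 1.57 ± 0.21 (limma, adjusted p = 0.00309), and its probes gave 1.56 and 1.58. miR-27b, 491 bases from miR-24 in the genome, read -4.26 and -4.34 against -3.12 and -3.65. Its difference was 0.92 ± 0.18 (limma, adjusted p = 0.0152) with 1 of 4 arrays measured.

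The relatives from the other locus did not pass. miR-23a differed by -0.18 ± 0.17 and miR-27a, one base apart from miR-27b, by -0.0806 ± 0.23, both measured on all 4 arrays. miR-24, which both loci encode as one mature sequence, differed by 0.13 ± 0.27. Of the 7 tested members 2 were higher and none lower by the test, against 4.57% and 5.14% over all tested miRNAs. Their median was 0. It was -0.28 if all probes set the scale and 0.61 in the deposited table, settings that moved the median of all miRNAs to -0.34 and 0.38.

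miR-1224, encoded within the span of Vwa5b2 on chromosome 16 and measured on all 4 arrays, was higher in the knockout. It stood at -0.87 and -0.55 in wild type and at 0.92 and 0.74 in knockout cells. In scanner units its brighter probe read 549 and 300 against 2258 and 1248. The difference was 1.54 ± 0.26 (limma, adjusted p = 0.00935), or 2.91-fold, and it was the one call left with normexp background correction, at 1.20. It was 1.36 after quantile normalization and 2.05 in the deposited table, and passed in neither.

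miR-135a*, the minor arm of the miR-135a-1 hairpin within the span of Glyctk on chromosome 9, read -4.60 and -5.02 in wild type and -2.69 and -2.97 in knockout cells. Its difference of 1.97 ± 0.25 (limma, adjusted p = 0.00309) rests on 1 of its 4 probes, since the others were not above background on both arrays of any group. That probe met the filter through the 24 h knockout arrays themselves, where it is high. The next brightest, not used, gave 0.90, with -3.43 in wild type and -3.67 in knockout cells at replicate 2, the opposite sign. It turned to -1.24 with the scanner's summed signal, and to -0.70 in the deposited table. miR-1224 and miR-135a* belong to a list of GC-rich miRNAs that often read brightly on arrays. Of its 5 tested members 2 were higher and none lower, where 4.57% of all tested miRNAs were higher. As miR-135a* met the filter through the arrays where it is high, these calls are too few to read. The median of the list was 0.57. The other members, miR-1895 at 0.47 ± 0.29, miR-877* at 0.57 ± 2.09 and miR-1904 at -0.0650 ± 0.26, did not pass.

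miR-20b and miR-322, both encoded on the X chromosome, were lower in the knockout while their seed relatives did not pass. miR-20b, of the miR-106a-363 cluster, stood at -2.75 and -2.56 in wild type and at -3.20 and -3.29 in knockout cells. The difference was -0.60 ± 0.11 (limma, adjusted p = 0.0134). Before scaling, its brighter probe read 109 and 50.4 against 94.5 and 46.0 scanner units, and the difference turned to 0.35 with the scanner's summed signal and to 0.89 in the deposited table. miR-20a differed by -0.41 ± 0.21, miR-106b by 0.36 ± 0.26 and miR-93 by 0.40 ± 0.31.

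miR-322, known from muscle and cell cycle exit, read -2.57 and -2.26 against -3.04 and -3.22. That is a difference of -0.71 ± 0.14 (limma, adjusted p = 0.0151), with -0.72 and -0.71 from its probes. Before scaling, its brighter probe read 81.1 and 44.5 against 71.4 and 40.2 scanner units. In the deposited table miR-322 differed by -0.18, where the median of all miRNAs was 0.38. Its seed relatives miR-15a, miR-15b and miR-16 were measured on all 4 arrays and differed by 0.36 ± 0.27, 0.30 ± 0.11 and 0.34 ± 0.17, none past the threshold. Whether miR-322 differs from them in its genotype difference was not tested.

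The 5 other miRNAs past the threshold were miR-378, both miR-129 arms, miR-99a and miR-689. miR-378 read -4.88 and -4.84 in wild type and -3.97 and -4.24 in knockout cells, 0.76 ± 0.11 higher (limma, adjusted p = 0.00346), and turned to -0.10 with normexp and -0.34 in the deposited table. miR-129-3p and miR-129-5p, opposite arms of miR-129 hairpins, were lower by the test, at -1.06 ± 0.24 and -0.58 ± 0.13 (limma, adjusted p = 0.0316 and 0.0282). They passed in 3 and 5 of the 12 fits that each left out 1 array. The first read -2.53 and -2.84 against -3.34 and -4.16, the second -4.30 and -4.36 against -4.81 and -5.02. miR-99a lay at the floor on both wild type arrays and at -4.45 and -4.40 on the knockout arrays. Its fitted difference was 0.59 ± 0.11 (limma, adjusted p = 0.0151), no array measured it, and it turned to -0.15 with normexp.

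miR-689, listed among sequences that are pieces of abundant RNAs, stood at -2.80 and -2.74 in wild type and at -2.14 on both knockout arrays. It was 0.62 ± 0.15 higher (limma, adjusted p = 0.0411), passed in 2 of those 12 fits, and was -0.0786 with the summed signal. The other tested members of that list, miR-709, miR-720 and miR-690, differed by -0.27 ± 0.42, -0.11 ± 0.21 and -0.0017 ± 0.44 and did not pass. The part of such RNAs in the other results was not tested.

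Within replicate numbers, which here are also scanning runs, the genotype differences of replicate 1 and replicate 2 had the same sign for all 17 miRNAs that passed and for 109 of all 174 tested mouse miRNAs. For the 17 this follows from their groups not overlapping, so it is no further check. Across the 174 miRNAs those differences gave r = 0.87 (Pearson) and rho = 0.73 (Spearman) between replicates, and across the 62 measured on all 4 arrays r was 0.90. These describe miRNAs on shared arrays, which are not independent. miR-1224 differed by 1.79 within replicate 1 and 1.28 within replicate 2, miR-23b by 1.66 and 1.48, miR-10a by -1.98 and -2.39, and miR-322 by -0.47 and -0.96.

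**Figure D2:**
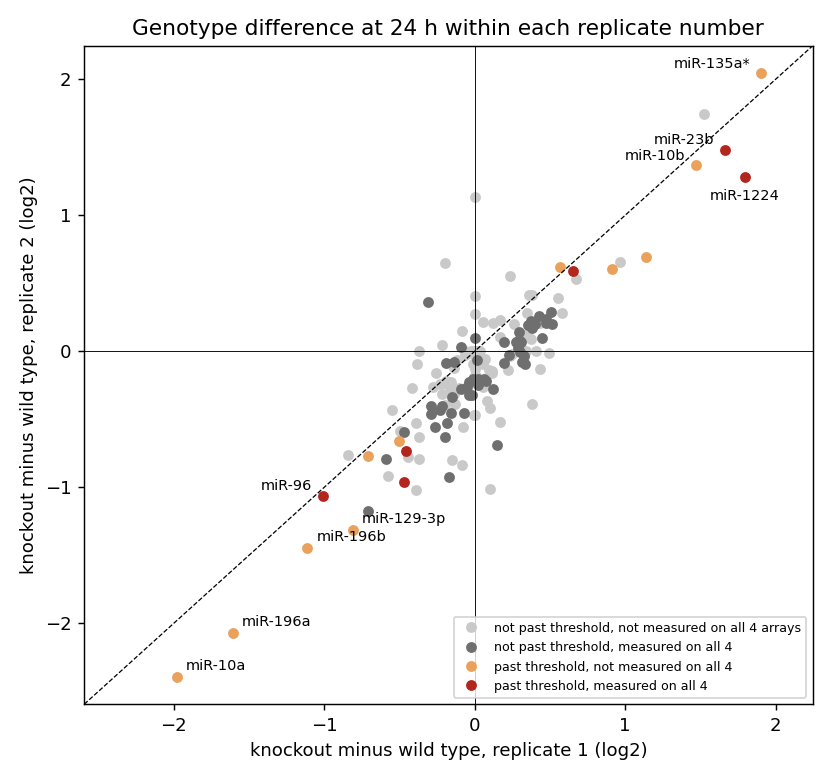
Knockout minus wild type at 24 h within replicate 1 (horizontal axis) and within replicate 2 (vertical axis), in log2 units, 1 point for each of 174 mouse miRNAs, with those past the threshold in orange and red and a dashed line of equality. The labelled miRNAs, with differences over 1 unit, lie near the line on both sides of 0, from miR-10a at -1.98 and -2.39 to miR-135a* at 1.90 and 2.04.

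With the replicate number as a fixed block, 21 miRNAs passed (12%), 16 of them among the 17. miR-689 was lost, with a blocked adjusted p of 0.0575 (limma). A random block, at an estimated correlation of 0.23, kept all 17, miR-689 at 0.0241, and gave 23. The fixed block gained 5, of which 4 were lower and 1 higher in the knockout. miR-140*, from a locus known in cartilage, differed by -0.80 ± 0.0823 in that fit (limma, adjusted p = 0.00332). miR-125a-5p followed at -0.69 ± 0.0752 (0.0034), miR-31 at -0.53 ± 0.11 (0.0382) and miR-99b at -0.37 ± 0.0822 (0.0405), and miR-93 was 0.40 ± 0.0853 higher (0.0382). The first 3 of these also passed with the random block, while miR-99b and miR-93 did not, at an adjusted p of 0.359 and 0.328. That block gained miR-149 (0.0379), miR-34a (0.0340) and miR-377 (0.0461) instead. miR-31 and miR-125a-5p were measured on all 4 arrays, at -1.61 and -1.76 against -2.08 and -2.36, and at -1.23 and -1.51 against -1.82 and -2.31.

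Signals ranked over both genotypes put miR-1224, at rank 10, among the 10 highest measured on all 4 arrays. Its knockout arrays set that place, so it is no result. Among the other 9, miR-21, a miRNA abundant in most cultured cells, read 3.51 and 3.60 in wild type and 3.84 and 3.56 in knockout cells, a difference of 0.14 ± 0.18. miR-22 differed by -0.0897 ± 0.24, miR-125b-5p by 0.16 ± 0.24 and miR-199a-3p, a mesenchymal miRNA, by 0.0990 ± 0.14. The others were miR-720, miR-29a at 0.30 ± 0.21, miR-27a, miR-23a and let-7e at -0.33 ± 0.21. None of these 9 passed, and a p that misses the threshold does not show that levels were equal.

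With 9.71% of all tested miRNAs past the threshold, the 0 to 2 calls in each list described next are near that share or too few to read. The imprinted Dlk1-Dio3 cluster, a large group of maternally expressed miRNAs on chromosome 12, had 33 tested members, of which 0 passed and 8 had an unadjusted p under 0.05 (limma), with a median of -0.21 (24 below 0 and 3 above). Quantile normalization gave a median of -0.17 and a scale from all probes -0.43, while it was 0.35 in the deposited table. Relative to the median of all miRNAs under the same setting it was -0.0248 in the deposited table and -0.19 in the values reported here. Only miR-379, at -0.41 ± 0.25, and miR-299*, at -0.35 ± 0.31, were measured on all 4 arrays. miR-382 and miR-377, at -0.48 ± 0.14 and -0.61 ± 0.19, came nearest to the threshold in that list, with an adjusted p of 0.0791 and 0.0985 (limma). With the replicate number as a random block miR-377 passed, at 0.0461. miR-494 stood apart at 1.63 ± 0.83, from -4.22 and -5.02 to -2.70 and -3.27.

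The cluster that runs from miR-17 to miR-92a, which promotes proliferation, had 6 tested members, all below 0 and none past the threshold, with a median of -0.29. It was 0.25 in the deposited table, below the median of 0.38 over all miRNAs there. miR-20a differed by -0.41 ± 0.21, miR-19b by -0.24 ± 0.18 and miR-92a by -0.31 ± 0.25. None of 9 let-7 miRNAs passed, and none of these lists of the miR-17 cluster, let-7 and miR-29 had a member at an unadjusted p under 0.05 in limma. Their median of 0.15 became -0.29 when scaled on all probes, where that of all miRNAs was -0.34, and let-7g and let-7a differed by 0.35 ± 0.18 and 0.28 ± 0.21. None of the 4 tested miR-29 miRNAs passed, with a median of 0.24. It was -0.19 on the scale from all probes and -0.0816 with normexp, both above the medians over all miRNAs, -0.34 and -0.29. Of 17 mesenchymal and fibroblast miRNAs only miR-196a passed, and the median was -0.0239, within 0.0076 of that of all tested miRNAs. miR-31 and miR-214 in that list differed by -0.53 ± 0.16 and -0.35 ± 0.19.

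miRNAs that have been linked to the unfolded protein response were listed too, among them miR-34a, miR-96 and miR-125b, whose precursors the stress sensor IRE1 is reported to cleave. Of 14 tested, miR-27b was higher and miR-96 lower by the test, a share near the 9.71% over all tested miRNAs. The median was 0.11. It was -0.22 on the scale from all probes and -0.15 with normexp, again above the medians over all miRNAs. miR-34a, a p53-responsive miRNA measured on all 4 arrays, read -1.59 and -1.55 in wild type and -1.08 and -1.27 in knockout cells. Its difference of 0.40 ± 0.10 missed the threshold (limma, adjusted p = 0.0588) and passed with a random replicate block, at 0.0340. miR-214 differed by -0.35 ± 0.19, miR-106b by 0.36 ± 0.26 and miR-125b-5p by 0.16 ± 0.24.

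**Figure D3:**
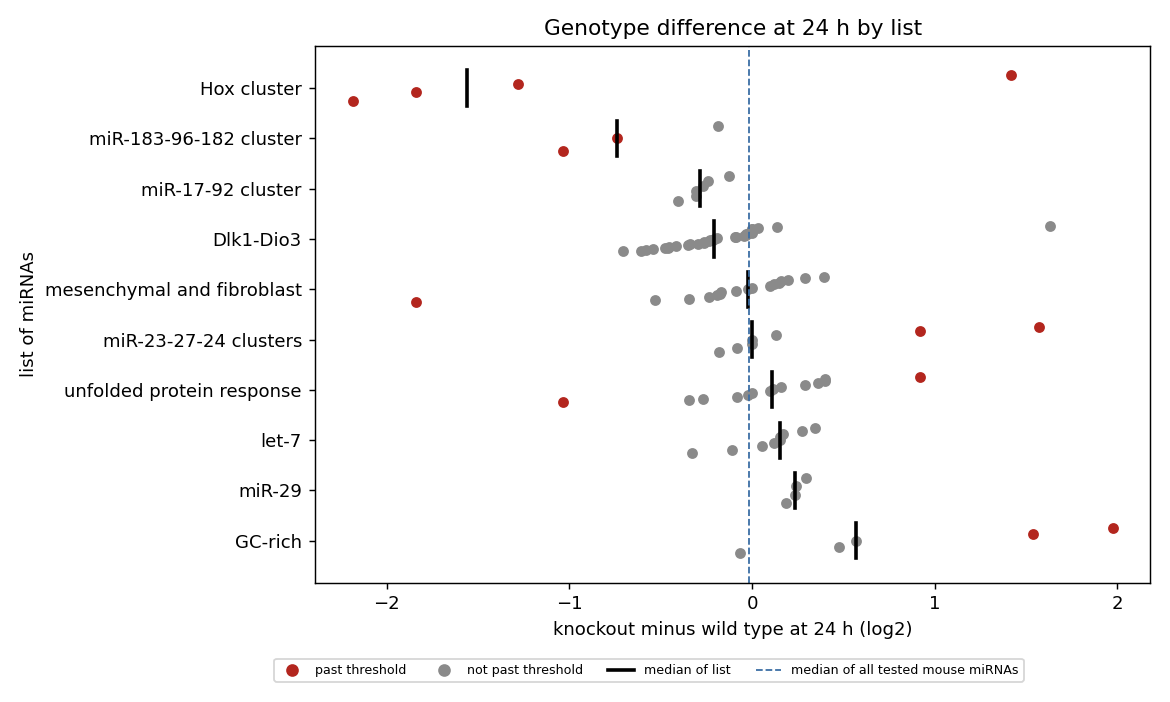
Knockout minus wild type at 24 h, in log2 units, for the tested members of 10 lists, with members past the threshold in red, the median of each list as a black bar and the median of all tested mouse miRNAs, -0.0166, as a dashed line. The 4 Hox cluster members lie far from 0 on both sides, while the 33 Dlk1-Dio3 members, none past the threshold, lie mostly between -0.70 and 0.14 apart from miR-494 at 1.63.

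Most of the differences at 24 h were also present before tunicamycin or after 12 h. In untreated cells 49 miRNAs differed between the genotypes (28% of those tested), and at 12 h 13 did (7.43%). Of the 17 at 24 h, 10 had passed with the same sign in untreated cells and 1 with the opposite sign, together 64.7% of the 17 and 22.4% of the 49. At 12 h 10 had passed with the same sign, 58.8% of the 17 and 76.9% of the 13, and 8 passed with one sign in all conditions. miR-10a differed by -1.91 ± 0.14 untreated and -1.97 ± 0.14 at 12 h, with its knockout arrays at the floor throughout. miR-96 differed by -0.69 ± 0.10 and -0.87 ± 0.10, and miR-322 by -0.85 ± 0.14 and -1.05 ± 0.14.

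Across the 174 miRNAs the 24 h difference correlated with the 12 h difference at r = 0.76 (rho 0.78) and with the untreated one at r = 0.48 (rho 0.43). Over the 52 miRNAs measured on all 12 arrays r was 0.79 and 0.25. The 12 and 24 h arrays shared a slide and scanning runs, and the untreated arrays lay on another slide, so these values describe the arrays as well as the cells.

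The 4 miRNAs that passed at 24 h alone were miR-135a*, miR-1224, miR-20b and miR-689. miR-1224 stood between -3.41 and -3.02 on the 4 untreated arrays and between -1.38 and -0.59 on the 4 arrays of 12 h, with genotype differences of -0.22 ± 0.26 and 0.16 ± 0.26. miR-20b differed by -0.0073 ± 0.11 untreated and -0.0591 ± 0.11 at 12 h. miR-135a* was at the floor on all untreated arrays and on all but 1 of the 12 h arrays. miR-689 differed by 0.0139 ± 0.15 untreated and, at 12 h, by 0.58 ± 0.15 (limma, adjusted p = 0.0544).

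**Figure D4:**
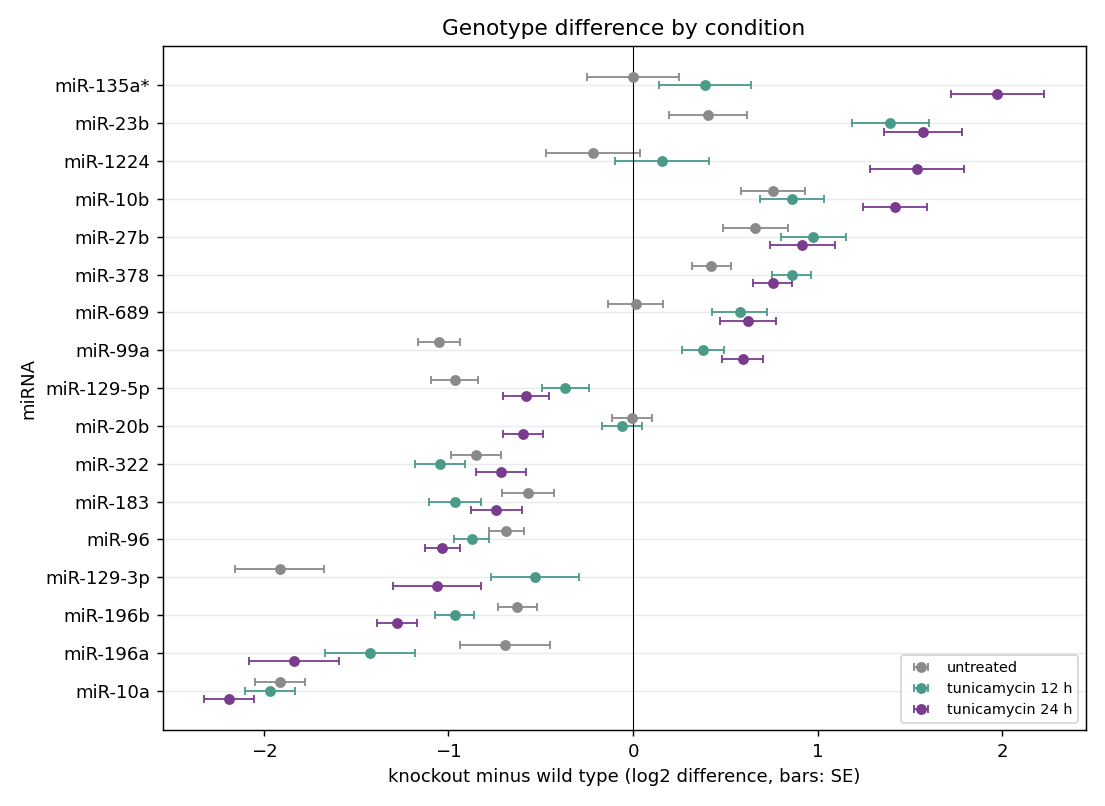
Knockout minus wild type in log2 units, with SE bars, for the 17 miRNAs past the threshold at 24 h, in untreated cells (grey), after 12 h (green) and after 24 h (purple) of tunicamycin, n = 2 arrays a group. miR-10a, miR-96 and miR-322 are below 0 in all conditions, while miR-1224 and miR-20b lie near 0 until 24 h and miR-99a is at -1.05 untreated and at 0.59 at 24 h.

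The change of the genotype difference itself was tested. Against the untreated difference, 23 miRNAs passed at 24 h (13.1%), 18 upward and 5 downward, around a median shift of 0.20 over all 175, and only 3 of the 23 were measured on all 8 arrays compared. These 3 were miR-1224 with a change of the difference of 1.75 ± 0.36 (limma, adjusted p = 0.0214), miR-23b with 1.17 ± 0.30 (0.045) and miR-20b with -0.59 ± 0.15 (0.045), which was lost with the fixed replicate block at 0.0746. miR-135a*, miR-99a and miR-196b also passed both tests, at 1.97 ± 0.35, 1.65 ± 0.16 and -0.65 ± 0.15, with arrays at the floor. As miR-135a* was at the floor on all untreated arrays, its change is the 24 h difference again and no further result. For miR-196b the knockout arrays were at the floor in both conditions, so its change reflects the wild type level alone. Of the Dlk1-Dio3 cluster, 10 of 33 tested members passed upward and none downward, with a median of 0.52. With the fixed replicate block 6 of the 10 passed, and miR-136 (0.0585), miR-369-5p (0.0678), miR-411 (0.0728) and miR-134 (0.0512) did not. In untreated cells 27 of the 33 had differed between genotypes, with a median of -0.81, and after 24 h only 2 of the 33 were measured on all 4 arrays, so a lower signal and a smaller difference cannot be told apart there. Since all untreated arrays lay on one slide and all treated arrays on another, treatment and slide cannot be told apart either.

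Against the 12 h difference no miRNA passed (0%, limma), with 4 at an unadjusted p under 0.05. These were miR-135a* at 1.58, miR-1224 at 1.38, miR-20b at -0.54 and miR-674* at 0.60. The first 3 of these are among the 4 that passed at 24 h alone. Without knockout 12 h replicate 1 the count of miRNAs whose difference changed from 12 to 24 h was 8.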

How the data were processed

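Total RNA, 100 ng per array, was Cy3-labelled and hybridised to 12 single-colour Agilent mouse miRNA arrays, per the labels' protocols. The authors deposited spot intensities from Agilent Feature Extraction (version 10.7.1.1 in the submitters' processing notes). Per the file headers these are linear and background-subtracted, and nothing scales one array to another. Values in the deposited series table are log2, and match the log2 of that software's summed signal per miRNA. The number of arrays limits the precision.

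Control and outlier spots were left out, no spot was saturated, and spots were averaged into 1857 probes of 611 mouse and 39 viral miRNAs. Arrays were divided by their 75th percentile over 87 probes above background on all arrays. A floor of 0.0309 (the median over arrays of the lowest signal above background) was set and log2 taken. A miRNA is the mean over its probes above background on both arrays of some group, 306 probes of 175 miRNAs. Of the 17 that passed, 13 had several such probes, none in opposite directions. A probe at the floor on all 4 arrays gives 0 and could not be opposite, as for 1 probe each of miR-99a and miR-129-5p. limma 3.58.1 (R 4.3.3) was fitted to 6 group means over all 12 arrays (6 residual degrees of freedom, 1.16 prior), and p-values were adjusted by Benjamini-Hochberg. A fold given as at least N sets the brighter group's mean against the dim group's lowest signal above background. On simulated data with the observed spreads of 175 miRNAs, this comparison recovered 35.4% of changes of 0.5 log2 units. It recovered 67.2% of changes of 1 and 88.6% of 2, with 0.68 false calls on average. The simulated noise was independent between arrays and was not cut at the floor. The real arrays differ in both, so these rates do not carry over to the calls reported here.

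Same-numbered arrays were scanned in one run, and the number pairs them: deviations from group means correlated at 0.94 between the 24 h groups. The rule named every miRNA past the threshold, those gained with the replicate block, the 10 of highest signal, 2 to 4 per list, and those whose genotype difference changed. The comparison, members and lists were chosen with earlier results of these data known. Lists got no test. miRNAs were matched to RefSeq by name. Other settings tried were the scale, the background correction, the dim-probe filter, the floor, the choice of probe, which arrays were fitted, the block, and each array left out. normexp used the median spot signal, since the mean is not among the columns used here.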

Additional observations from a re-analysis of the deposited data

Results flagged for a closer look

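For 23 miRNAs the genotype difference at 24 h differed from that in untreated cells by the test of the change itself (limma, adjusted p under the threshold). They are given as log2 values, 24 h minus untreated, with no explanation. Among those that also passed at 24 h, miR-135a* changed by 1.97, miR-1224 by 1.75, miR-99a by 1.65, miR-23b by 1.17, miR-20b by -0.59 and miR-196b by -0.65. The value of miR-135a* is its 24 h difference again, since it was at the floor on all untreated arrays. That of miR-196b reflects the wild type level alone, with its knockout arrays at the floor in both conditions. The 10 members of the Dlk1-Dio3 cluster that passed moved upward. miR-434-3p changed by 0.96, miR-409-3p by 0.81, miR-154* by 0.80, miR-543 by 0.70, miR-136 by 0.68, miR-376a* by 0.68, miR-369-5p by 0.66, miR-411 by 0.61, miR-134 by 0.52 and miR-409-5p by 0.39. miR-148a moved by 1.43, miR-210 by 0.73, miR-152 by 0.63 and miR-132 by 0.49. Downward changes were -1.05 for miR-149, -0.62 for miR-222 and -0.31 for miR-146b. For miR-210, miR-222 and miR-146b the difference at 24 h was 0, so the change is the untreated difference with its sign turned. A lower signal and a smaller difference cannot be told apart for these. With the fixed replicate block 16 of the 23 passed, among 22 in all, and the 7 lost were miR-20b (adjusted p = 0.0746 in limma), miR-149 (0.0755), miR-369-5p (0.0678), miR-411 (0.0728), miR-136 (0.0585), miR-146b (0.0728) and miR-134 (0.0512). Of all 23, only miR-1224, miR-23b and miR-20b were measured on all 8 arrays, and slide and treatment cannot be told apart. Groups of 2 arrays allow no check for a single array that stands apart.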

How the results depend on the processing

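The 17 calls at 24 h became 0 in limma under 5 settings (in brackets, those at an unadjusted p under 0.05): a scale from all probes (2), quantile normalization (8), each array's own floor (7), the summed signal (6), the deposited table (6). They were 1 with normexp, 4 with only probes above background on all 4 arrays, 3 with only these arrays fitted and 8 with only the 8 treated arrays. They were 21 with a fixed and 23 with a random replicate block, 14 with no filter on dim probes, 16 with a lower floor and 16 with the brightest probe. The median over all miRNAs moved to -0.34 on the scale from all probes, -0.29 with normexp, -0.16 with each array's own floor and 0.38 in the deposited table. Leaving out 1 array gave 9 to 29 calls, and 8 of the 17 passed without each of the 12 arrays in turn. Among 446 values of single calls under the alternatives, 268 kept direction and call, 167 kept direction only and 11 turned: in the deposited table miR-10a 0.93, miR-135a* -0.70, miR-196a 0.36, miR-378 -0.34, miR-20b 0.89 and miR-183 0.0102, with the summed signal miR-135a* -1.24, miR-20b 0.35 and miR-689 -0.0786, and with normexp miR-378 -0.10 and miR-99a -0.15. The cause was not tested. Of the 11, 7 also lay on the other side of the median of all miRNAs. The others, miR-196a and miR-183 in the deposited table and both with normexp, stayed on the same side of it but nearer to it. Relative to that median miR-196a went from -1.82 to -0.0241 and miR-183 from -0.72 to -0.37. With normexp miR-378 went from 0.77 to 0.18 and miR-99a from 0.61 to 0.13. Besides those 8, miR-1224 passed in 11 of the 12 fits, miR-20b, miR-322 and miR-27b in 10, miR-183 in 9, miR-99a in 8, miR-129-5p in 5, miR-129-3p in 3 and miR-689 in 2. The fixed and the random replicate block changed no other call at 24 h than those named beside the results. The 23 changes from the untreated difference became 0 in limma on the scale from all probes (2 at an unadjusted p under 0.05), after quantile normalization (12) or normexp (1), with only probes above background on all 4 arrays (5), with each array's own floor (2) and in the deposited table (3), 22 with the fixed replicate block (16 of the 23), 30 with the random block, 15 with no filter, 9 with a lower floor, 2 with the summed signal, and 11 to 45 without 1 array. The 0 changes from the 12 h difference in limma, 4 at an unadjusted p under 0.05, were 0 to 8 without 1 array. Values at the floor limit the sizes of 10 of the 17. They also carry no spread, so the SE and p of miR-10a, miR-196b and miR-99a, with a 24 h group at the floor, are too small. With each array's own floor the adjusted p of each was 0.992 (limma). As all 6 groups share the spread, groups at the floor in other conditions lower it too. This holds for miR-135a* (both untreated groups and wild type at 12 h) and miR-689 (untreated wild type). It also holds for miR-129-5p (untreated knockout) and miR-196a (knockout at 12 h).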

Other observations

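The summed signal of the scanner software, which the deposited table holds, differed in places from the spots of the same miRNA. For miR-10a it was 101 on knockout replicate 1, where its probes averaged 5.71 and 14.4, and 70.5 on wild type replicate 1, where they averaged 28.7 and 74.8. For miR-135a* it was 425 on wild type replicate 1, where its 4 probes averaged -3.62 to 15.7.

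miR-467f and miR-669f, of the group in an intron of Sfmbt2, differed far more between replicate numbers than between genotypes. The first stood at -4.06 and -3.77 on the replicate 1 arrays and at -1.24 and -1.16 on the replicate 2 arrays, wild type first, with a genotype difference of 0.19 ± 1.57. The second stood at -3.27 and -3.36, then -1.62 and -1.59, with a genotype difference of -0.0325 ± 1.21. Of 11 tested members of that group 0 passed in limma, with 0 at an unadjusted p under 0.05, and their median was 0.0264.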
